A study of Homo sapiens with 17 samples.

Results

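The 36 genes described here belong to sugar breakdown and to the transcriptional answer to low oxygen. They were taken by symbol from a count table of 34496 gene rows, and all 36 symbols had a row. Of these, 23 encode glycolytic enzymes, sugar and lactate transporters or the kinase that holds back pyruvate oxidation, and 13 are genes that low oxygen induces. The low-count filter kept 35 of the 36 among 13241 tested genes. The member left out was SLC2A3, a glucose transporter with 1 to 9 counts in each of the 6 libraries of the test.

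The 10 RNA libraries came from lines of human squamous cancer of the head and neck and were depleted of ribosomal RNA. The first set held 2 libraries each of 3 groups. These were Cal27 labelled as an NSD1 knockout with EPZ-6438, the same labelled knockout with DMSO, and Cal27 with DMSO. Cal27 is a line of tongue squamous cell carcinoma, NSD1 methylates lysine 36 of histone H3, and EPZ-6438 (tazemetostat) inhibits EZH2, which methylates lysine 27. A second set held 1 untreated library each of the labelled knockout, SKN3, BICR78 and Cal27. The comparisons ask what the labelled knockout changed, what EZH2 inhibition changed in it, and how far the lines differ. The labels give no dose, treatment time, oxygen level or cell density. One labelled knockout line was measured, so NSD1 loss and the history of that line cannot be told apart. No library of Cal27 with EPZ-6438 was analysed here.

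Glycolysis turns glucose into pyruvate, and cancer cells commonly reduce much of that pyruvate to lactate and export it with acid. Under low oxygen the prolyl hydroxylases EGLN1, EGLN2 and EGLN3 stop marking the alpha subunits of hypoxia-inducible factor (HIF) for destruction through VHL. The stabilised alpha subunits, encoded by HIF1A and EPAS1, pair with ARNT and bind short DNA motifs near their targets. Squamous tumours of the head and neck often contain poorly oxygenated zones, and carbonic anhydrase IX, the product of CA9, is widely used to mark them.

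The core letters of the HIF motif were looked for in the promoters of the members. Windows of 300 bases, 250 before and 50 after each annotated start, came from RefSeq (GRCh38.p14), which gave 58 windows for 32 of the 36 genes. The letters searched were ACGTG and GCGTG on either strand, read as CACGT and CACGC on the gene's own strand where they lie on the other. Matches may overlap. They were present in 8 of 10 windows of hypoxia-induced members and in 31 of 48 windows (64.6%) of glycolytic members. Among all 35116 windows the share was 48.4%, and among the 13607 windows of genes with a mean of 50 counts or more it was 61.0%. Some genes have several windows, so the share was also taken over genes. At least 1 window with a match was present for 21 of 22 glycolytic genes (95.5%) and 8 of 10 hypoxia-induced genes, against 70.7% of genes with a mean of 50 counts or more. Among genes with a single window it was present for 11 of 12 glycolytic genes (91.7%), against 65.3% of such genes with a mean of 50 counts or more. The motif holds a CpG, and the median number of CpG per window was 24.5 for hypoxia-induced members, 27 for glycolytic members, 25 for the genes with a mean of 50 counts or more and 14 for all windows. The windows of CA12, ALDOC, EGLN3, CA9, BNIP3 and P4HA1 are printed because the comparisons below turn on these members. Each is 5′ to 3′ on the strand of its gene, with matches in capitals. CA12 lies at chr15:63381797-63382096, minus strand; ALDOC at chr17:28576846-28577145, minus strand; EGLN3 at chr14:33951025-33951324, minus strand. CA9 lies at chr9:35673678-35673977, plus strand; BNIP3 at chr10:131981874-131982173, minus strand; P4HA1 at chr10:73096817-73097116, minus strand.
CA12: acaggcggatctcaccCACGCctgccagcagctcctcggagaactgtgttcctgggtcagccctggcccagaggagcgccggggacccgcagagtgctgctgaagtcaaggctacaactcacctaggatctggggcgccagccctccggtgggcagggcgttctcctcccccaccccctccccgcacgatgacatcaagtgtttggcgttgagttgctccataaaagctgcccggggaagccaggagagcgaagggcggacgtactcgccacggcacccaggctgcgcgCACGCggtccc
ALDOC: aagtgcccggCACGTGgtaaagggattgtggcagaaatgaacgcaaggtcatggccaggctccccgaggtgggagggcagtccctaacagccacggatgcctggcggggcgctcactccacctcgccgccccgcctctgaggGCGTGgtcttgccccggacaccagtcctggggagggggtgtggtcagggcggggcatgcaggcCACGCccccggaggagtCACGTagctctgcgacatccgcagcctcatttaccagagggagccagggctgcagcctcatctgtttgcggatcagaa
EGLN3: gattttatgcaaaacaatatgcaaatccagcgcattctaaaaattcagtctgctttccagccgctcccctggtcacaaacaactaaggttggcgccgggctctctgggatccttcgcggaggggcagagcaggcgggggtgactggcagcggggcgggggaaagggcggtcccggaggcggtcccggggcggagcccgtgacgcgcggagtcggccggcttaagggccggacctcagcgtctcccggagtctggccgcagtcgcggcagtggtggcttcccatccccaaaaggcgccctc
CA9: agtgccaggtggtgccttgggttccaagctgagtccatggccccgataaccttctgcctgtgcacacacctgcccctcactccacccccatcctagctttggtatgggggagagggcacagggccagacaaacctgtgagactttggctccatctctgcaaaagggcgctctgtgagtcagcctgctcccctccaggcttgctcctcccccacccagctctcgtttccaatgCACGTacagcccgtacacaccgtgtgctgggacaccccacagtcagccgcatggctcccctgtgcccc
BNIP3: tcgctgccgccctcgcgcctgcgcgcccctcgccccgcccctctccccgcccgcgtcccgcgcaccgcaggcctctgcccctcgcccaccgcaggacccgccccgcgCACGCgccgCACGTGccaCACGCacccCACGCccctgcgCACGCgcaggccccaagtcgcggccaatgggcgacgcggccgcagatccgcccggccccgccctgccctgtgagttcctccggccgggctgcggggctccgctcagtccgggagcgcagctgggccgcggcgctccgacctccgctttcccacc
P4HA1: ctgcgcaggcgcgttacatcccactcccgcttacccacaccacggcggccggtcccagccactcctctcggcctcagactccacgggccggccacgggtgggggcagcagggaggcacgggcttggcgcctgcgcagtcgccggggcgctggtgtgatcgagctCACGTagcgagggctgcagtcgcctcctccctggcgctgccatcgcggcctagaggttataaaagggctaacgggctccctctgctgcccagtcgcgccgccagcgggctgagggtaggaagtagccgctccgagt

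The window of BNIP3 held 6 matches and that of ALDOC 5, counts reached or passed by 0.923% and 1.98% of all windows. Among windows of the genes that passed the mean count limit above, the shares were 1.37% and 2.86%. The BNIP3 window held 48 CpG and the ALDOC window 19, against medians of 25 for those genes and 14 for all windows. The window of CA9 held 1 match, whose first letter lies 18 bases before the start. That of P4HA1 held 1 match, 86 bases before the start. The window of CA12 held 2 and that of EGLN3 none. A match is a run of letters and does not show that a factor binds there; binding was not analysed here.

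Total counts per library ran from about 11745700 to 15509100 in the first set and from about 17587100 to 21739000 in the untreated set. NSD1 mRNA was higher, not lower, in the labelled knockout (log2 0.53 ± 0.04, SE; edgeR, adjusted p = 4.2e-08), and counts per gene do not show whether a transcript is edited, so they do not check the label. All 9 squamous epithelial markers exceeded 1 CPM in every group, where CPM is a gene's count scaled to the TMM-corrected size of its library. Their summed level was 2612 to 2638 CPM with EPZ-6438, 4053 to 4209.9 CPM in the labelled knockout with DMSO and 8808 to 8897 CPM in Cal27 with DMSO. The 7 immune markers summed to 231 to 237, 177 to 182 and 82.1 to 82.5 CPM in the same groups, almost all of it from CD14, CD68 and LAPTM5. The 7 fibroblast markers summed to 21.4 to 25.2, 7.52 to 9.96 and 18.9 to 20.6 CPM, and the 5 endothelial markers to 26.5 to 29.1, 20.7 to 23.0 and 17.3 to 17.5 CPM. CD3E was at or near 0 in these 6 libraries. The part of these markers in the results below was not tested, and in bulk RNA fewer cells of a type and less RNA per cell cannot be told apart.

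The labelled knockout and Cal27, both with DMSO, differed most among the hypoxia-induced genes in NDRG1 and CA12, which were far lower in the labelled knockout. CA9 and VEGFA were higher there. EGLN3, ANGPTL4 and DDIT4 were lower as well. Of the 13, 2 rose, 5 fell and 6 did not pass (edgeR quasi-likelihood test, Benjamini-Hochberg adjusted p below 0.05 over all tested genes), with a median log2 change of -0.01. Of all 13241 tested genes, 16.4% rose and 19.5% fell (35.9% in either direction), with the same median of -0.01. Nothing says that the libraries came from separate cultures, so p-values here cover the spread between libraries alone and that spread may be technical.

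NDRG1, a stress-induced gene linked to differentiation and to restraint of metastasis, stood at 45.7 and 47.9 CPM in the labelled knockout against 464 and 452 CPM in Cal27. The labelled knockout held 10.2% of the Cal27 level, or -3.29 ± 0.04 on the log2 scale (SE; edgeR, adjusted p = 6.9e-19). CA12, which encodes another carbonic anhydrase of the cell surface, had 3 and 2 counts in the labelled knockout against 53 and 69 in Cal27. The ratio of its summed counts per depth was 0.0418, with a 95% interval of 0.0133 to 0.100 for counting error only (exact binomial; edgeR, adjusted p = 3.3e-07). EGLN3, a HIF prolyl hydroxylase that HIF itself induces, stood at 59.2 CPM in both libraries of the labelled knockout against 75.7 and 76.4 CPM in Cal27 (log2 -0.36 ± 0.05, SE; edgeR, adjusted p = 2.2e-05). In all of these the libraries of the 2 groups lay apart.

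CA9, whose product sits on the cell surface and helps to control pH, went the other way, at 51.8 and 53.8 CPM in the labelled knockout against 36.3 and 36.9 CPM in Cal27 (log2 0.53 ± 0.06, SE; edgeR, adjusted p = 2.6e-06). VEGFA, the main inducer of blood vessel growth, stood at 269 and 279 CPM in the labelled knockout against 186 and 189 CPM in Cal27 (log2 0.55 ± 0.03, SE; edgeR, adjusted p = 1.0e-09). The mitophagy receptors BNIP3 and BNIP3L, the vasodilator peptide gene ADM, the collagen prolyl hydroxylases P4HA1 and P4HA2, and ANKRD37 did not pass, with log2 values from -0.23 to 0.10. BNIP3 did pass with library size alone (adjusted p = 0.0090) and in a fit of only these 2 groups (adjusted p = 0.049), and P4HA2 passed with library size alone (adjusted p = 0.049).

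The remaining decreases were weaker evidence. DDIT4, an inhibitor of mTOR signalling, fell by 0.09 ± 0.03 (log2, SE; edgeR, adjusted p = 0.019), and lost its call without replicate 1 of Cal27 with DMSO (adjusted p = 0.16) or the labelled knockout's DMSO replicate 1 (adjusted p = 0.16). ANGPTL4, an inhibitor of lipoprotein lipase, had 15 and 6 counts in the labelled knockout against 36 and 21 in Cal27 (log2 -1.41 ± 0.45, SE; edgeR, adjusted p = 0.022). Its call was lost without replicate 1 of Cal27 with DMSO (adjusted p = 0.22), without replicate 2 of the labelled knockout with DMSO (log2 -0.85, adjusted p = 0.21) and in DESeq2 (adjusted p = 0.12). Without replicate 1 of the labelled knockout with DMSO its log2 change was -2.25.

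**Figure D1:**
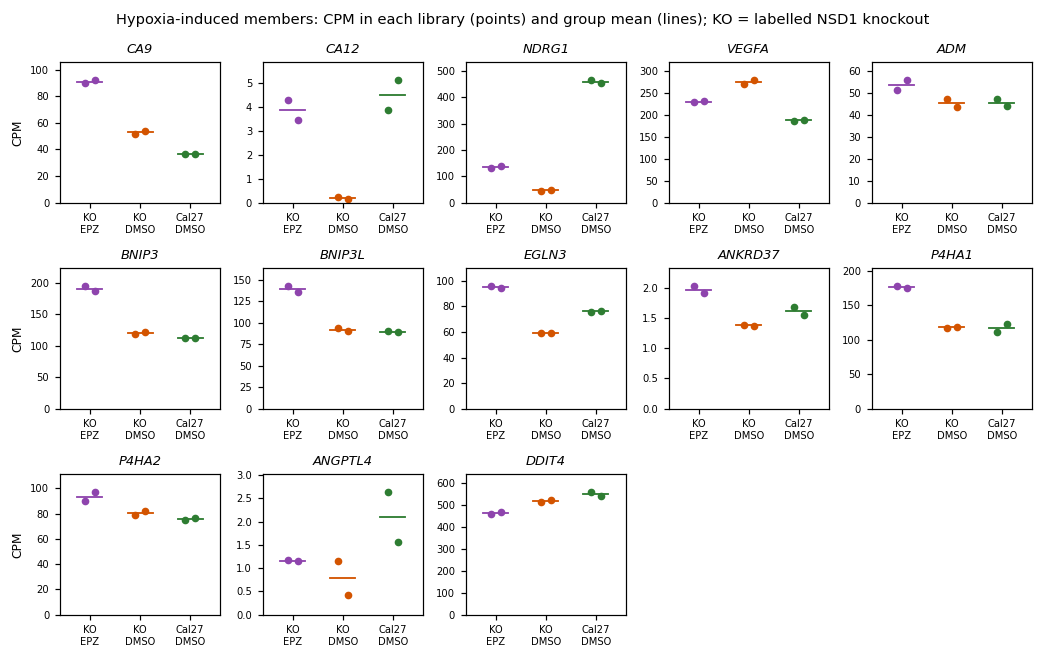
Scaled counts (CPM, vertical axes, each from 0) of the 13 hypoxia-induced genes in the 2 libraries of each of 3 groups, the labelled NSD1 knockout with EPZ-6438, the same with DMSO, and Cal27 with DMSO; points are libraries and lines group means. NDRG1 is at 133 and 139, 45.7 and 47.9, and 464 and 452 CPM in these groups, while CA9 is at 90.1 and 91.9, 51.8 and 53.8, and 36.3 and 36.9 CPM.

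The glycolytic genes changed by small amounts in the same comparison, and more of them were lower than higher in the labelled knockout. Of the 22 tested, 12 fell, 5 rose and 5 did not pass, against 19.5% and 16.4% of all tested genes, with a median log2 change of -0.09 where that of all tested genes was -0.01. The shares of all tested genes, here and below, are not matched for level. GAPDH, at 5219 and 5122 CPM in Cal27, passed at a log2 change of -0.15 with an SE of 0.02. The part of level in these counts was not tested. Only 1 of the 17 called changes, that of ALDOC, reached a log2 size of 0.5, where 35.8% of all called genes did. Scaling by library size alone gave 9 falling and 5 rising, and turned the split over all genes to 2978 rising and 2088 falling, where TMM gave 2169 and 2580.

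ALDOC, the brain-type aldolase, had the largest change of the pathway, with 22.4 and 22.2 CPM in the labelled knockout against 60.0 and 52.3 CPM in Cal27 (log2 -1.33 ± 0.08, SE; edgeR, adjusted p = 1.0e-09). SLC2A1, the main glucose transporter of epithelial cells, stood at 256 and 254 CPM in the labelled knockout against 310.1 and 304 CPM in Cal27 (log2 -0.27 ± 0.04, SE; edgeR, adjusted p = 1.6e-05). PGK1, the phosphoglycerate kinase that makes ATP in the lower part of the pathway, had 849.7 and 847 CPM in the labelled knockout against 1012 and 1010.4 CPM in Cal27 (log2 -0.25 ± 0.02, SE; edgeR, adjusted p = 2.5e-07). LDHA, the dehydrogenase subunit that favours lactate, fell by 0.18 ± 0.02 (log2, SE; edgeR, adjusted p = 4.5e-06).

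The other members that fell were GPI and PGAM1 (log2 -0.20 and -0.25), ENO1, GAPDH, TPI1 and HK1 (-0.16, -0.15, -0.12 and -0.13), and LDHB and ALDOA (-0.10 and -0.09). ENO2, the neuronal enolase, rose by 0.41 ± 0.07 (log2, SE; edgeR, adjusted p = 1.6e-04), to 43.3 and 41.5 CPM in the labelled knockout against 33.1 and 30.7 CPM in Cal27. PFKL and PFKP, subunits of phosphofructokinase, rose by 0.19 and 0.17 (log2), the lactate exporter SLC16A3 by 0.20 and hexokinase HK2 by 0.10. PFKM, PFKFB3, PFKFB4, PKM and PDK1 did not pass. Of PKM, which encodes pyruvate kinase, the libraries of the labelled knockout held 3502 and 3589.9 CPM and those of Cal27 3598 and 3545 CPM. SLC2A3 had 1 and 1 counts in the labelled knockout against 7 and 3 in Cal27, a ratio of 0.204 with a counting interval of 0.0217 to 0.956.

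The smallest of these changes were not stable to the loss of 1 library. HK2 lost its call whichever of the 4 libraries was left out (edgeR, adjusted p from 0.13 to 0.15) and in DESeq2 (adjusted p = 0.14). HK1 lost it without replicate 1 or 2 of Cal27 with DMSO (adjusted p = 0.092 and 0.072), without replicate 2 of the labelled knockout with DMSO (0.16) and in DESeq2 (0.086). ALDOA lost it without replicate 1 of Cal27 (0.099) or of the labelled knockout (0.079). LDHB and SLC16A3 lost theirs without replicate 2 of Cal27 (0.13 and 0.11) or replicate 2 of the labelled knockout (0.13 and 0.11). With library size alone HK1, ALDOA, LDHB and DDIT4 did not pass. With the untreated pair added to the fit, PFKL lost its call and turned in sign (log2 -0.027, adjusted p = 0.90), with -0.45 in the untreated pair alone, and HK1, HK2, ALDOA, LDHA, LDHB, ANGPTL4 and DDIT4 lost their calls.

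EPZ-6438 in the labelled knockout was accompanied by higher levels of most hypoxia-induced genes. Of the 13, 9 rose, 2 fell and 2 did not pass, with a median log2 change of 0.58, where 25.6% of all tested genes rose, 23.9% fell (49.6% in either direction) and the median was 0.00. The increases covered acid handling (CA9, CA12), mitophagy (BNIP3, BNIP3L), oxygen sensing (EGLN3), collagen hydroxylation (P4HA1, P4HA2), ADM and NDRG1. VEGFA and DDIT4 fell. This comparison shares the DMSO libraries of the labelled knockout with the one above, so its values stand beside those and no overlap is drawn.

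CA9 stood at 90.1 and 91.9 CPM with EPZ-6438 against 51.8 and 53.8 CPM with DMSO (log2 0.79 ± 0.05, SE; edgeR, adjusted p = 1.6e-09). CA12 had 51 and 54 counts with EPZ-6438 against 3 and 2 with DMSO, a ratio of 20.4 with a 95% counting interval of 8.49 to 64.3 (edgeR, adjusted p = 4.5e-07). NDRG1 stood at 133 and 139 CPM with EPZ-6438 against 45.7 and 47.9 CPM with DMSO (log2 1.54 ± 0.05, SE; edgeR, adjusted p = 4.9e-14). In each of these 3 genes both treated libraries lay above both DMSO libraries.

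Genes that had not passed between the labelled knockout and Cal27 also rose with the inhibitor. BNIP3, a mitophagy receptor of the outer mitochondrial membrane, had 194 and 187 CPM with EPZ-6438 against 119 and 121 CPM with DMSO (log2 0.67 ± 0.04, SE; edgeR, adjusted p = 2.9e-10). Its relative BNIP3L had 142 and 136 CPM against 93.6 and 90.1 CPM with DMSO (log2 0.60 ± 0.04, SE; edgeR, adjusted p = 7.8e-09). P4HA1, the alpha subunit of a collagen prolyl hydroxylase, had 177 and 176 CPM against 117 and 119 CPM with DMSO (log2 0.58 ± 0.04, SE; edgeR, adjusted p = 1.1e-08). The treated libraries lay above the DMSO libraries in all 3. EGLN3, which had been lower in the labelled knockout than in Cal27, reached 95.6 and 94.2 CPM with EPZ-6438 against 59.2 CPM in both DMSO libraries (log2 0.68 ± 0.05, SE; edgeR, adjusted p = 4.0e-09).

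Smaller increases were seen in P4HA2 (log2 0.22 ± 0.05, SE; edgeR, adjusted p = 1.7e-03) and ADM (log2 0.25 ± 0.07, SE; edgeR, adjusted p = 6.5e-03). ADM lost its call without replicate 2 of the labelled knockout with DMSO (adjusted p = 0.091) or replicate 2 with EPZ-6438 (adjusted p = 0.11). VEGFA fell to 229 and 231 CPM with EPZ-6438, against 269 and 279 CPM with DMSO (log2 -0.25 ± 0.03, SE; edgeR, adjusted p = 6.2e-06), and DDIT4 fell by 0.16 ± 0.03 (log2, SE; edgeR, adjusted p = 1.3e-04). ANKRD37 and ANGPTL4 did not pass, at 24 and 30, and 14 and 18 counts with EPZ-6438 against 18 and 19, and 15 and 6 with DMSO. The level of NSD1 itself did not pass here (log2 -0.08 ± 0.04, SE; edgeR, adjusted p = 0.13).

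Glycolytic genes split with EPZ-6438, with 10 rising, 6 falling and 6 not passing of 22, against 25.6% and 23.9% of all tested genes, and a median log2 change of 0.02. The genes that rose were SLC2A1, HK2, PFKL, PFKFB3, ALDOA, TPI1, PGK1, ENO2, LDHA and SLC16A3, and those that fell were HK1, GPI, PFKM, PFKP, PFKFB4 and LDHB. Of the 16 called changes, 4 reached a log2 size of 0.5, those of ENO2, PFKFB3, PFKFB4 and PFKM, where 38.2% of all called genes did.

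ENO2 had the largest increase, with 77.3 and 80.3 CPM with EPZ-6438 against 43.3 and 41.5 CPM with DMSO (log2 0.90 ± 0.06, SE; edgeR, adjusted p = 1.7e-09). PFKFB3, which makes the allosteric activator of phosphofructokinase, had 87.8 and 84.9 CPM with EPZ-6438 against 57.1 and 60.4 CPM with DMSO (log2 0.55 ± 0.05, SE; edgeR, adjusted p = 1.5e-07). Its relative PFKFB4 went the other way, with 38 and 32 counts with EPZ-6438 against 78 and 82 with DMSO (log2 -1.21 ± 0.24, SE; edgeR, adjusted p = 4.4e-04).

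PGK1 stood at 1044 and 1063 CPM with EPZ-6438 against 849.7 and 847 CPM with DMSO (log2 0.31 ± 0.02, SE; edgeR, adjusted p = 8.9e-09), and SLC2A1 at 289 and 312 CPM against 256 and 254 CPM with DMSO (log2 0.24 ± 0.04, SE; edgeR, adjusted p = 3.4e-05). HK2, ALDOA and SLC16A3 rose by 0.24, 0.24 and 0.23 (log2), LDHA by 0.16, and TPI1 and PFKL by 0.12 each. PFKL lost its call without replicate 2 of the labelled knockout with DMSO (adjusted p = 0.092) or replicate 1 with EPZ-6438 (adjusted p = 0.059). LDHB, the subunit that favours pyruvate, fell to 593 and 587 CPM with EPZ-6438, against 776 and 755 CPM with DMSO (log2 -0.38 ± 0.03, SE; edgeR, adjusted p = 5.7e-09).

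PFKM, the muscle-type phosphofructokinase subunit, fell to 79.1 and 80.5 CPM with EPZ-6438, against 118 and 113 CPM with DMSO (log2 -0.53 ± 0.05, SE; edgeR, adjusted p = 4.2e-08). HK1 fell by 0.30 ± 0.04 and PFKP by 0.18 ± 0.04 (log2, SE). GPI fell by 0.10 ± 0.03 (edgeR, adjusted p = 0.013), and lost its call without replicate 1 of the labelled knockout with DMSO (adjusted p = 0.097) or replicate 1 with EPZ-6438 (log2 -0.06, adjusted p = 0.12). ALDOC, GAPDH, PGAM1, ENO1, PKM and PDK1 did not pass, with log2 values from -0.09 to 0.05. PGAM1 was called without replicate 2 of EPZ-6438 (adjusted p = 0.037). SLC2A3 had 7 and 9 counts with EPZ-6438 against 1 and 1 with DMSO, a ratio of 7.79 with a counting interval of 1.83 to 69.8.

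**Figure D2:**
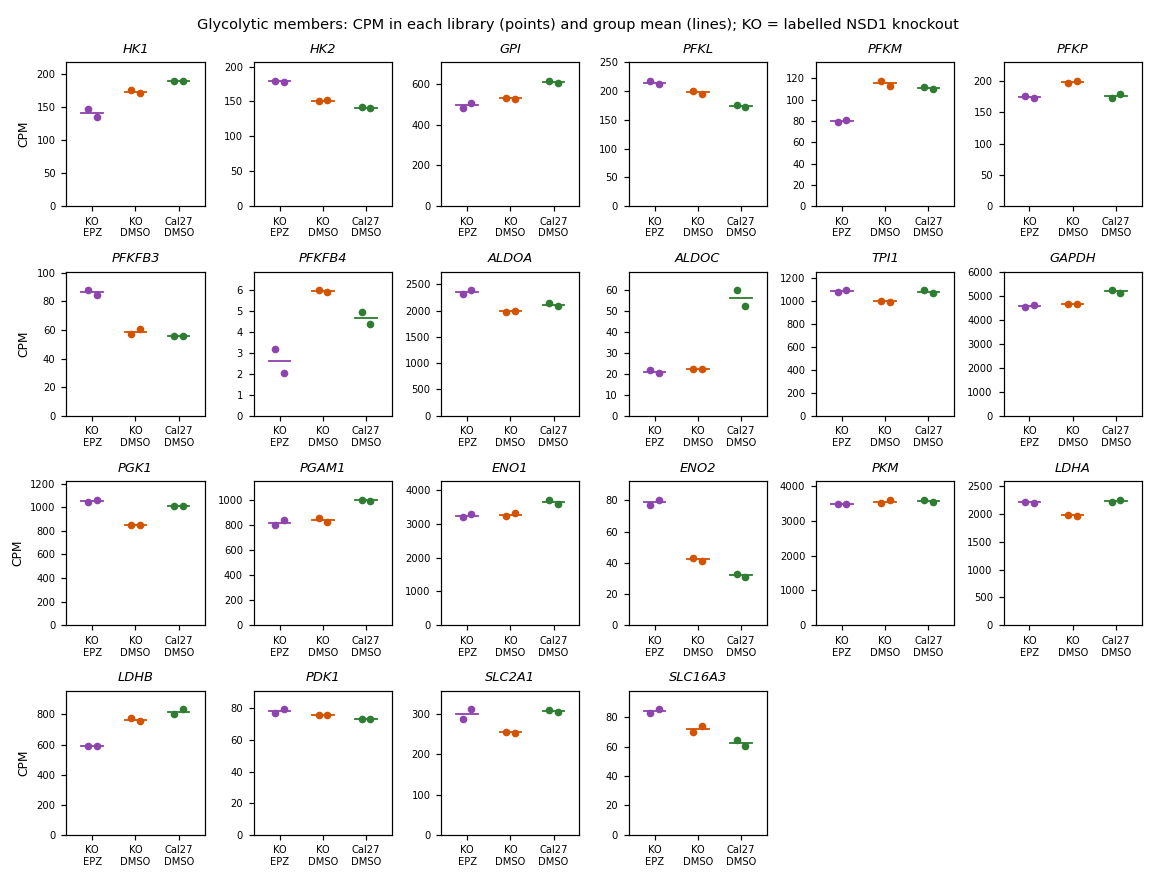
Scaled counts (CPM, vertical axes, each from 0) of the 22 tested glycolytic genes in the 2 libraries of the labelled NSD1 knockout (EPZ-6438, then DMSO) and of Cal27 (DMSO); points are libraries and lines group means. ENO2 is at 77.3 and 80.3, 43.3 and 41.5, and 33.1 and 30.7 CPM in the order of the axis, while ALDOC is at 21.7 and 20.4, 22.4 and 22.2, and 60.0 and 52.3 CPM.

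Set against Cal27 with DMSO, the treated labelled knockout carried more mRNA of most hypoxia-induced genes and a mixed glycolytic pattern. Of the 13 hypoxia-induced genes, 8 were higher, 2 were lower and 3 did not pass, with a median log2 difference of 0.30, where 26.1% of all tested genes were higher and 25.9% lower (52.0% in either direction). Glycolytic genes divided into 7 higher, 9 lower and 6 not passing of 22, against the same shares of all genes. Library size alone gave 4016 higher and 2815 lower over all genes, where TMM gave 3456 and 3428.

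CA9 and ENO2 stood well above Cal27, both at log2 1.31 (SE 0.05 and 0.06; edgeR, adjusted p = 3.0e-12 and 1.8e-11). NDRG1 was below Cal27, at 29.7% of its level (log2 -1.75 ± 0.03, SE; edgeR, adjusted p = 1.4e-16). CA12 had 105 counts in the treated labelled knockout and 122 in Cal27, a ratio of 0.854 with a 95% counting interval of 0.651 to 1.12 (edgeR, adjusted p = 0.49). ALDOC was lower, at 21.7 and 20.4 CPM in the treated labelled knockout against 60.0 and 52.3 CPM in Cal27 (log2 -1.42 ± 0.08, SE; edgeR, adjusted p = 2.2e-10). BNIP3, BNIP3L, P4HA1 and PFKFB3 were higher by 0.76, 0.63, 0.58 and 0.62 (log2).

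For SLC2A1, LDHA, TPI1 and PFKP the treated labelled knockout and Cal27 did not pass as different, with log2 values from -0.03 to 0.00 and SE from 0.02 to 0.04, and the signs of SLC2A1, LDHA and PFKP turned with library size alone. LDHB, PFKM and HK1 were lower, with log2 differences of -0.47 ± 0.03, -0.47 ± 0.05 and -0.42 ± 0.04 (SE). PFKFB4 was lower as well (log2 -0.86 ± 0.24, SE; edgeR, adjusted p = 7.1e-03), and lost its call without replicate 1 of Cal27 with DMSO (adjusted p = 0.052) or replicate 2 with EPZ-6438 (log2 -0.54, adjusted p = 0.13). PGK1, higher by 0.06 ± 0.02 (log2, SE; edgeR, adjusted p = 0.041), lost its call without any library except replicate 1 of EPZ-6438 (adjusted p from 0.070 to 0.14). ADM, higher by 0.23 ± 0.07 (log2, SE; edgeR, adjusted p = 8.3e-03), lost it without replicate 2 of Cal27 with DMSO (adjusted p = 0.092) or replicate 2 with EPZ-6438 (adjusted p = 0.12).

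**Figure D3:**
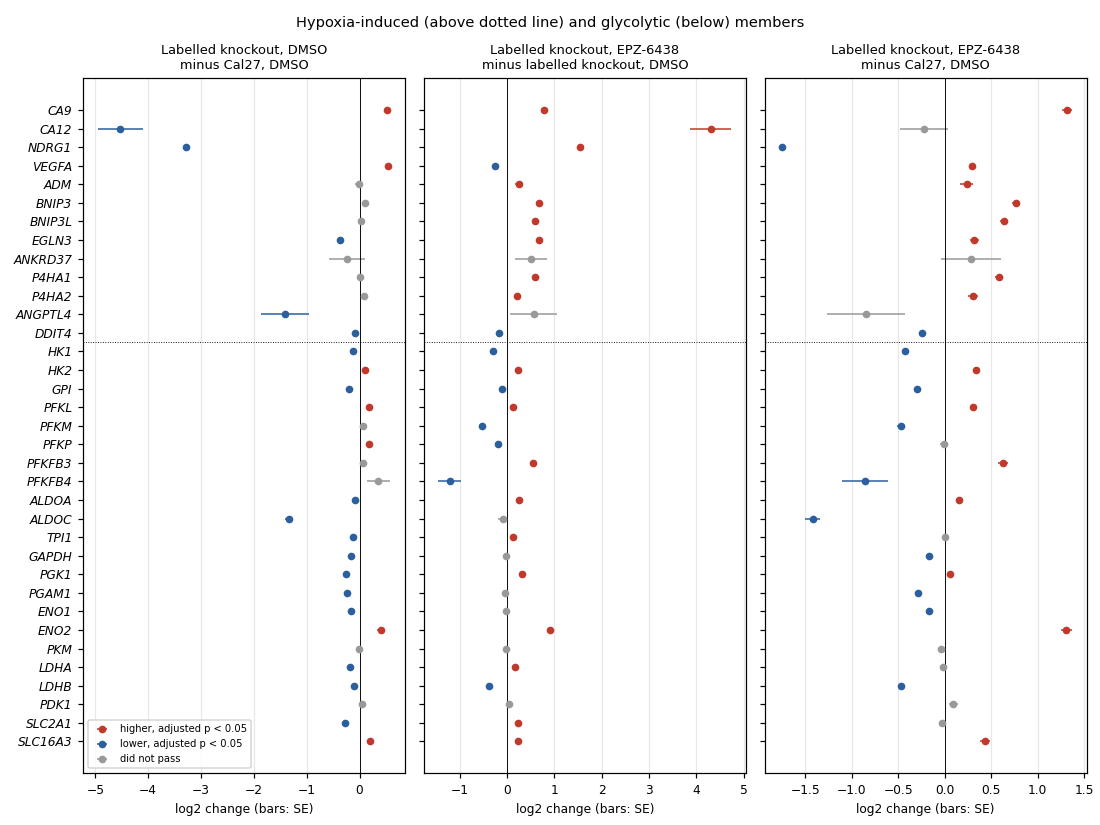
Log2 change (horizontal axes, which differ in range between panels) of the 35 tested members with the standard error worked back from the edgeR test, for 3 differences, the labelled knockout minus Cal27 (both DMSO), EPZ-6438 minus DMSO in the labelled knockout, and the knockout line given EPZ-6438 minus Cal27 given DMSO. Red points are higher and blue points lower at an adjusted p below 0.05. In the middle panel 9 of 13 hypoxia-induced genes are red, and in the left panel 12 of 22 glycolytic genes are blue.

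Because several steps have more than 1 enzyme, the ratio of paired members within a library was followed, which needs no scaling between libraries. Only shifts of a ratio between groups are read. The ratio of HK2 to HK1 was 0.54 higher with EPZ-6438 than with DMSO in the labelled knockout, and 0.23 higher in the labelled knockout than in Cal27, both with DMSO (log2, mean of 2 libraries each). The largest gap between replicates of a group was 0.11. The ratio of LDHA to LDHB was 0.54 higher with EPZ-6438 than with DMSO, where replicates differed by at most 0.03. Between the labelled knockout and Cal27 with DMSO it differed by -0.08.

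The ratio of ENO2 to ENO1 was 0.91 higher with EPZ-6438 than with DMSO, and 0.57 higher in the labelled knockout than in Cal27 (log2; replicate gap at most 0.10). That of ALDOC to ALDOA was -0.33 with EPZ-6438 against DMSO and -1.24 in the labelled knockout against Cal27 (replicate gap at most 0.15). The ratio of PFKFB4 to PFKFB3 differed by -1.78 with EPZ-6438 against DMSO, and the ratio of PFKM to PFKL by -0.65 (replicate gaps at most 0.60 and 0.07). No test was run on these ratios.

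In the untreated pair, which shares no library with the comparisons above, the labelled knockout again had little CA12 and NDRG1 and more CA9 and VEGFA than Cal27. There is 1 library per group, so there is no replicate check and no p-value, and intervals are 95% counting intervals only. NDRG1 stood at 26.6 CPM in the labelled knockout against 230.1 CPM in Cal27, a ratio of 0.115 (0.106 to 0.126). CA12 had 2 counts in the labelled knockout against 382 in Cal27, a ratio of 0.0050 (0.00060 to 0.018). CA9 was at 34.8 CPM in the labelled knockout against 15.5 CPM in Cal27, a ratio of 2.25 (1.97 to 2.57), and VEGFA at 333 against 206 CPM, a ratio of 1.62 (1.56 to 1.68).

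Past 1.5-fold, 3 of 11 compared hypoxia-induced genes were higher (CA9, VEGFA, P4HA2) and 4 lower (CA12, NDRG1, ADM, EGLN3), where 10.1% of 11661 compared genes were higher and 12.3% lower. ANKRD37 and ANGPTL4 had too few counts to be compared. Of 22 glycolytic genes, 2 were higher (ENO2, SLC16A3) and 3 lower (ALDOC, SLC2A1, PDK1). ALDOC stood at 16.9 CPM in the labelled knockout against 40.3 CPM in Cal27, a ratio of 0.421 (0.371 to 0.476). Of the members called with DMSO and compared here, 6 of 6 hypoxia-induced and 13 of 17 glycolytic genes had the same sign in the untreated pair, where 76.8% of 4414 called genes did. The 4 glycolytic exceptions were HK1, PFKL, LDHA and LDHB. With library size alone, 1 glycolytic gene (ALDOC) and 2 hypoxia-induced genes (CA12, NDRG1) were lower past 1.5-fold, and SLC2A1, PDK1, ADM and EGLN3 no longer reached it.

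The level of hypoxia-induced genes also differed between the sets of libraries of Cal27 itself. The mean of the 2 DMSO libraries was 2-fold or more above the untreated library for 7 of 11 compared hypoxia-induced genes and 2-fold or more below for 1, with a median log2 difference of 1.01. Of all 11234 genes compared, 2.04% were 2-fold or more higher and 4.18% lower. EGLN3 stood at 76.2 and 76.9 CPM with DMSO against 29.4 CPM untreated, BNIP3 at 113 and 112 against 49.8 CPM, and P4HA1 at 113 and 124 against 52.5 CPM (all scaled over the 10 libraries). In the labelled knockout the same ratio of DMSO to untreated was 3.12 for EGLN3, 2.05 for BNIP3L, 1.93 for BNIP3, 1.79 for NDRG1, 1.62 for P4HA1, 1.54 for CA9 and 1.06 for P4HA2. These 7 were picked by their values in Cal27. The share of all genes past 2-fold was not computed for the labelled knockout, so no count is read there. In Cal27, CA12 was the exception, at 3.89 and 5.14 CPM with DMSO against 18.2 CPM untreated. Glycolytic genes differed less in Cal27, with 1 of 22 higher (ENO2) and 1 lower (PFKFB4) by 2-fold, and a median of 0.19. In the labelled knockout the ratio was 2.35 for PDK1, 1.84 for PFKM, 1.74 for ENO2 and 0.45 for PFKFB4. DMSO and the library set cannot be told apart, and levels are therefore compared only within a set.

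**Figure D4:**
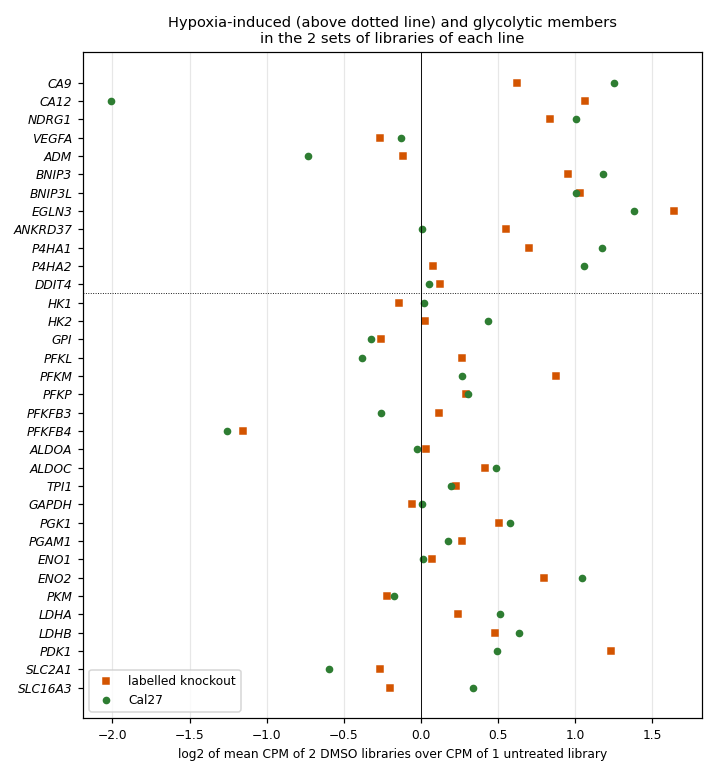
Log2 of the mean CPM of the 2 DMSO libraries over the CPM of the 1 untreated library (horizontal axis), in the labelled knockout (squares) and in Cal27 (circles). All members are drawn except SLC2A3 and ANGPTL4, which had few counts in untreated Cal27. In Cal27, 7 of 11 compared hypoxia-induced genes lie 2-fold or more to the right and CA12 lies to the left; the labelled knockout had 2 or 3 counts of CA12 in each DMSO and untreated library, so its square for CA12 rests on almost no reads.

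The other untreated lines differed from Cal27 in both groups of genes, again with 1 library each. They also differed in NSD1 mRNA, at 0.468 CPM (9 counts) in BICR78 and 78.1 CPM in SKN3, against 149 CPM in Cal27. The part of NSD1 in these differences was not tested. Squamous markers differed as well, with a summed level of 6110 CPM in SKN3, 13889 CPM in BICR78, 4533 CPM in the labelled knockout and 25138 CPM in Cal27, and their part was not tested. SKN3 had less of most glycolytic mRNAs. The 23 glycolytic members took 1.18% of its counts, against 2.12% in Cal27, and 9 of 23 were 2-fold or more lower and 2 higher (18.4% and 18.0% of 12169 compared genes). LDHA stood at 443 CPM in SKN3 against 1576 CPM in Cal27, a ratio of 0.281 (0.274 to 0.288), PKM at 1084 against 4057 CPM, and ENO1 at 1005 against 3624 CPM. LDHB was higher than in Cal27, a ratio of 1.30 (1.27 to 1.33), and so was the glucose transporter SLC2A3, with 5334 counts in SKN3 against 6 in Cal27.

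Of hypoxia-induced genes in SKN3, 4 of 11 were 2-fold or more lower and 1, P4HA2, higher, where 18.4% and 18.0% of 12169 compared genes were. CA9 stood at 1.53 CPM in SKN3 against 15.5 CPM in Cal27, a ratio of 0.0988 (0.0652 to 0.145). EGLN3 had 0 counts in SKN3 against 617 in Cal27. Taking 3 counts as the limit that a count of 0 allows, it was at least 186-fold lower in SKN3.

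BICR78 had more of several hypoxia-induced genes than Cal27. Of 12 compared, 5 were 2-fold or more higher and 2 lower, where 13.9% and 8.85% of 12174 compared genes were. BNIP3 stood at 207 CPM in BICR78 against 49.8 CPM in Cal27, a ratio of 4.16 (3.89 to 4.46), CA9 at 78.6 against 15.5 CPM, and NDRG1 at 506 against 230.1 CPM. ANGPTL4 had 184 counts in BICR78 against 13 in Cal27, and BNIP3L was also higher, while CA12 and EGLN3 were lower. Of 23 glycolytic genes, 4 were higher and PFKM was lower. The transporters were among the higher ones, SLC2A1 at 1022 CPM in BICR78 against 467 CPM in Cal27 and SLC2A3 with 876 counts against 6, together with ENO2 (95.02 against 15.6 CPM) and PFKFB4.

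**Figure D5:**
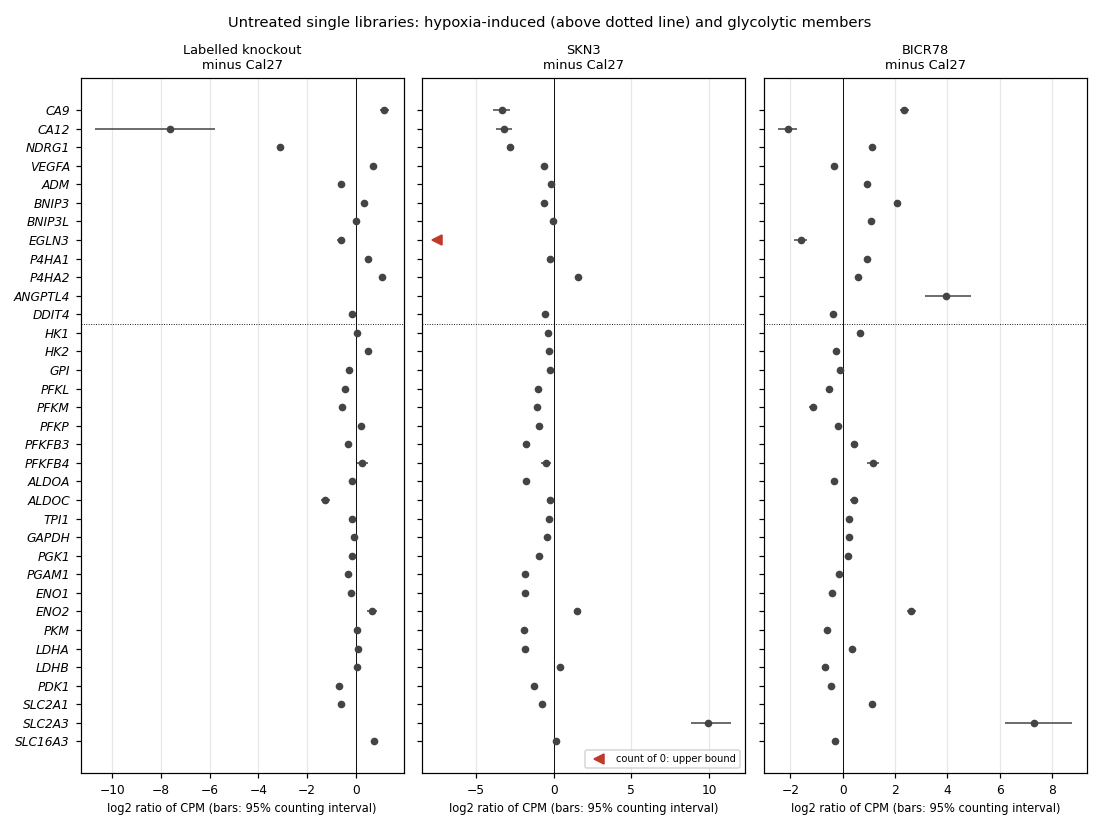
Log2 ratio of CPM (horizontal axes, which differ in range between panels) in the untreated libraries of the labelled knockout, SKN3 and BICR78, each over untreated Cal27, with 95% counting intervals, 1 library per line. The triangle marks EGLN3 in SKN3, where the count was 0 and the point is an upper bound; SLC2A3 lies far to the right in SKN3 and BICR78 on 5334 and 876 counts, against 6 in Cal27.

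Changes in the mRNAs of the HIF pathway itself were measured alongside. HIF1A rose by 0.17 ± 0.03 with EPZ-6438 (log2, SE; edgeR, adjusted p = 3.9e-05) and did not pass between the labelled knockout and Cal27 (log2 -0.04 ± 0.03). EPAS1 rose by 0.26 ± 0.04 with EPZ-6438 and by 0.23 ± 0.04 in the labelled knockout (log2, SE; edgeR, adjusted p = 3.3e-05 and 2.3e-04). EGLN1, the main HIF prolyl hydroxylase, rose by 0.52 ± 0.07 with EPZ-6438 (edgeR, adjusted p = 1.2e-05), while ARNT, VHL and EGLN2 passed in neither comparison. Of 15 tested genes of this machinery, 6 rose and 2 fell with EPZ-6438, and 4 rose and 1 fell in the labelled knockout. Over all tested genes, the background for this list and those below, 25.6% rose and 23.9% fell with EPZ-6438, and 16.4% rose and 19.5% fell in the labelled knockout. HIF activity is set mainly by protein stability, which RNA does not show.

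A list of 36 other hypoxia-induced genes, outside the members, held 34 tested genes. EGLN1 stands both in this list and in the HIF machinery above, and is counted in each. With EPZ-6438, 20 rose and 5 fell, with a median log2 change of 0.21, against 25.6% and 23.9% of all tested genes. In the labelled knockout 10 rose and 9 fell, with a median of 0.06, against 16.4% and 19.5%. STC1, a secreted glycoprotein hormone, averaged 123 CPM with EPZ-6438 and 10.52 CPM with DMSO (log2 3.54 ± 0.08, SE; edgeR, adjusted p = 1.2e-15). The arrestin-related gene ARRDC3 and the collagen lysyl hydroxylase PLOD2 rose by 1.83 ± 0.04 and 0.79 ± 0.04 with EPZ-6438 (log2, SE; edgeR, adjusted p = 4.8e-16 and 3.5e-11). ARRDC3 and PLOD2 were also higher in the labelled knockout than in Cal27, by 0.14 and 0.49 (log2; edgeR, adjusted p = 0.038 and 9.6e-08). In the labelled knockout against Cal27, STC2, the endothelin gene EDN1 and the transferrin receptor TFRC rose by 0.78, 0.69 and 0.49, and with EPZ-6438 they fell by 0.25, 0.40 and 0.08 (log2).

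Around pyruvate, 14 tested genes divided into 2 rising and 5 falling with EPZ-6438 (25.6% and 23.9% of all genes), and 5 rising and 5 falling in the labelled knockout (16.4% and 19.5% of all genes). SLC16A1, a lactate transporter, fell by 0.61 ± 0.04 with EPZ-6438 (log2, SE; edgeR, adjusted p = 1.7e-09), where the exporter SLC16A3 rose. PDHA1 and DLD, subunits of pyruvate dehydrogenase, fell by 0.31 and 0.35 with EPZ-6438 (log2). In the labelled knockout against Cal27 their log2 changes were -0.24 and -0.21 (edgeR, adjusted p = 1.9e-04 and 1.1e-03). PDHX, another subunit, and the transporter SLC16A7 rose by 0.51 and 1.001 in the labelled knockout (log2; edgeR, adjusted p = 8.4e-10 and 3.0e-05). In the pentose phosphate pathway, which branches from glycolysis at its first product, 1 of 7 tested genes rose and 3 fell with EPZ-6438, and 2 rose in the labelled knockout, where none passed as lower; with so few genes, these counts are not read against the shares of all genes. H6PD, the form in the endoplasmic reticulum, rose by 0.65 ± 0.05 and TKT and RPE fell by 0.27 and 0.20 with EPZ-6438 (log2). In the labelled knockout H6PD and RPIA rose by 0.31 and 0.25 (log2). Of 5 tested further isoforms and regulators of glycolysis, TIGAR fell by 0.43 ± 0.11 with EPZ-6438 (log2, SE; edgeR, adjusted p = 0.0038), and ADPGK, BPGM, ENO3 and PFKFB2 did not pass.

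Some members share sequence or position with other genes. The sources used here do not give the strand setting of the counting or the treatment of reads with several matches. Of the members named above, PFKM overlaps SENP1, SLC16A3 overlaps CSNK1D, BNIP3 overlaps PPP2R2D, TPI1 overlaps SPSB2, PFKFB4 overlaps UCN2, and ANKRD37 overlaps LRP2BP and UFSP2. With EPZ-6438 the log2 changes of SENP1, CSNK1D and PPP2R2D were 0.05, 0.04 and 0.04, and that of UCN2 was -0.40. In the labelled knockout against Cal27 with DMSO they were 0.09, -0.04 and -0.08, and 0.26 for UCN2. Over the 10 libraries CSNK1D had more counts than SLC16A3 (23742 against 10664), and UFSP2 more than ANKRD37 (3086 against 263). The part of these neighbours in the members' values was not tested. Pseudogene rows exist for 13 members, with at most 1.05% of the counts of the parent gene.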

How the data were processed

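TRIzol RNA was depleted of ribosomal RNA before library construction, per the labels' protocols. The submitters' processing notes name the build hg38 and list Picard 2.23.1, featureCounts 1.6.1, HISAT2 2.1.0 and CASAVA 1.7 without settings. Values were the raw gene counts that the authors deposited, whole numbers with library totals that differ. The series also has 7 CUT&Tag samples, not used here.

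The 6 DMSO and EPZ-6438 libraries entered 1 quasi-likelihood model of edgeR 4.0.16, run in R 4.3.3, after filterByExpr at its defaults and TMM scaling, with group as the only term. Genes were called at an adjusted p below 0.05 over all 13241 tested genes, and the common biological coefficient of variation was 2.60%. CPM are scaled over these 6 libraries, or over all 10 where untreated libraries enter. Log2 changes carry a standard error worked back from the test, as the size of the change over the square root of its quasi-likelihood F. Single libraries were compared as log2 CPM with a prior count of 2, for genes with a mean of 50 counts or more, without a test. Counting intervals are 95% intervals (exact Poisson for a level, exact binomial for a ratio). No molecular identifiers are described, so intervals and limits cover counting error only. The test was tried on simulated counts first. Replicate libraries of a group differed by more than counting noise (chi-square per degree of freedom 1.76 to 2.19), so their counts are not copies. This does not show separate library preparations or cultures. Alternatives were DESeq2 1.42.0, other scalings and filters, a fit of 2 groups, a robust fit, the untreated pair as further libraries, glmTreat at a log2 fold of 0.5, the replicate number as a block, and omission of each library. Named genes were all members, NSD1, 6 HIF pathway genes and, of each other list, the 3 tested genes with the lowest adjusted p in the labelled knockout against Cal27 (DMSO) and in EPZ-6438 against DMSO. The members and lists were chosen with earlier results of these data known. RefSeq names matched all 36 members. Its promoter windows are of GRCh38.p14.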

Additional observations from a re-analysis of the deposited data

Results flagged for a closer look

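PFKL, LDHA and LDHB were called between the labelled knockout and Cal27 with DMSO, and their difference had the opposite sign in the untreated pair. PFKL differed by -0.45 (log2) untreated and by 0.19 with DMSO. LDHA differed by 0.10 untreated and by -0.18 with DMSO, and LDHB by 0.070 untreated and by -0.10 with DMSO. The untreated pair has 1 library per group, and the difference between the 2 sets was not tested.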

How the results depend on the processing

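Of the members' values recomputed under the alternatives, 1699 kept their direction and side of the threshold (or moved by less than their error), 110 lost the threshold, 5 gained it, 70 values moved and 26 turned in sign. A test against a log2 fold of 0.5 left few calls. For the labelled knockout against Cal27 with DMSO it called 0 glycolytic genes up, 1 down, 0 hypoxia-induced genes up, 2 down and 866 genes in all, where the usual test called 5, 12, 2, 5 and 4749. For EPZ-6438 against DMSO it called 1, 1, 5, 0 and 1476, and for EPZ-6438 against Cal27 2, 1, 3, 1 and 1477. Adding the untreated pair gave 3 glycolytic genes up, 3 hypoxia-induced genes down and 2902 in all for the labelled knockout. It turned PFKL to -0.027, PFKM to -0.14, PFKFB3 to -0.058, PKM to 0.0075 and PDK1 to -0.20 (log2), and of these PFKL alone had been called. Library size alone gave 4 hypoxia-induced genes up in the labelled knockout, 1 glycolytic and 2 hypoxia-induced genes lower in the untreated pair, and turned PKM (0.041) and ADM (0.039) in the labelled knockout and PFKP (0.041), PKM (0.016), LDHA (0.034) and SLC2A1 (0.023) for EPZ-6438 against Cal27. A minimum of 50 counts turned P4HA1 to -0.0076 in the labelled knockout and ENO1 to 0.0063 with EPZ-6438. The cause of these changes was not tested.

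Leaving out each library in turn gave 3 to 5 glycolytic genes up and 3 to 5 hypoxia-induced genes down in the labelled knockout, with 3489 to 4799 genes called. The lowest counts came without replicate 2 of either group for glycolytic genes and without replicate 1 of Cal27 with DMSO for hypoxia-induced genes. Uncalled members near 0 ranged in log2 across it: PKM from -0.028 to 0.0074, ADM from -0.072 to 0.048 and P4HA1 from -0.067 to 0.075 in the labelled knockout, ENO1 from -0.032 to 0.0047 with EPZ-6438, and PFKP from -0.036 to 0.012, TPI1 from -0.011 to 0.020 and SLC2A1 from -0.090 to 0.024 for EPZ-6438 against Cal27. DESeq2 called 3248, 4924 and 5250 genes, where edgeR called 4749, 6564 and 6884. Libraries with the same replicate number did not deviate together over all tested genes (correlations 0.0035, -0.044 and 0.014). This does not show whether they were cultured or processed together. With the replicate block, 4512, 6370 and 6718 genes were called, and HK2 in the labelled knockout (adjusted p = 0.054) and PGK1 for EPZ-6438 against Cal27 (adjusted p = 0.062) lost their calls, the only members to do so. Depth limits the members with few counts, CA12, PFKFB4, ANGPTL4, ANKRD37 and SLC2A3.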
